A study of Mus musculus with 7 samples.

Results

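Transcripts of 10 mitogen-activated protein kinase (MAPK) target genes were examined after short hairpins lowered Dpep2 in RAW264.7, a macrophage-like line from mouse. They were taken by gene symbol: the immediate early factors Fos, Fosl1, Jun, Junb and Egr1, and the MAPK phosphatases Dusp1, Dusp2, Dusp4, Dusp5 and Dusp6. They are 10 of 55417 symbols in the count table, and all 10 passed the low-count filter that left 13329 tested genes. Dpep2 is a dipeptidase of the cell surface that acts on leukotrienes. RNA-seq covered 7 libraries, 2 from cells with the Dpep2 hairpin shDpep2.968, 2 from cells with a different Dpep2 hairpin, shDpep2.759, and 3 from cells with shNT, the control hairpin. Every group therefore carried a hairpin, and the labels name no stimulus, no time point, and neither a clone nor a pool of cells. Whether replicates came from separate cultures is not stated either, and p-values then reflect only the spread among these samples, possibly a technical one.

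Growth factor, cytokine and Toll-like receptors activate the ERK, JNK and p38 MAPKs, which phosphorylate transcription factors already present and so switch on the immediate early genes within minutes. Fos and Jun family proteins pair to form AP-1, and Egr1 is a zinc-finger factor induced through ERK. The dual-specificity phosphatases are induced by the same signals, remove phosphate from the MAPKs and so close a negative feedback loop. Dusp1, Dusp2, Dusp4 and Dusp5 encode nuclear enzymes, and Dusp6 encodes a cytoplasmic enzyme that acts on ERK. In macrophages, Dusp1 is best known for limiting p38 and JNK after lipopolysaccharide.

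Each library held 16548648 to 18401060 counts, and the 10 genes had 572 to 7831 each, a counting error of 4.18% to 1.13%, which covers counting alone and treats reads as independent molecules. Levels are CPM, counts scaled to library size by TMM. Dpep2 measured 22.4 and 17.9 CPM in shDpep2.968 cells, 24.9 and 19.5 CPM in shDpep2.759 cells, and 55.6, 60.3 and 52.1 CPM in shNT cells, so every library with a Dpep2 hairpin was below every control. Of 7 macrophage markers, all tested, Adgre1, Fcgr1 and Mrc1 rose in the averaged comparison described below, by 0.57, 0.59 and 1.25 on the log2 scale (edgeR adjusted p = 0.00397, 0.0161 and 0.036), and Lyz2, Csf1r and the other 2 did not pass. Mrc1 had only 10 to 35 counts per library. Among all tested genes 3.44% were called higher and 4.15% lower in the averaged comparison. Those shares apply to the other marker lists of this paragraph too. Adgre1 averaged 150 CPM with shDpep2.968, 259 CPM with shDpep2.759 and 133 CPM with shNT. The 7 markers summed to 12600 to 12700 CPM with shDpep2.968, 14500 to 17800 CPM with shDpep2.759 and 11800 to 13200 CPM with shNT. Epithelial and T cell markers summed to at most 0.173 and 0.347 CPM per library, with Epcam and Cd3e at 0 counts. The 5 dendritic cell markers summed to 39.8 to 46.9 CPM with shDpep2.968, 68.6 to 70.0 CPM with shDpep2.759 and 17.6 to 20.3 CPM with shNT, mostly Cd83 (means 34.5, 64.5 and 15.3 CPM in those groups). Cd83 and Itgax rose, Zbtb46 averaged 0.317, 0.716 and 0.885 CPM without passing, and Flt3 and Xcr1 had 1 to 14 counts. The 5 neutrophil markers summed to 34.1 to 50.2 CPM with shDpep2.968, 99.9 to 237 CPM with shDpep2.759 and 17.3 to 33.7 CPM with shNT. Nearly all of it was S100a8, with Ly6g at 0 counts throughout. S100a8, the single one tested, had an averaged log2 fold change of 1.88 and passed neither there nor with either hairpin. Its coefficient of variation with shDpep2.759 was 57.5%. The 5 B lymphocyte markers summed to 9.45 to 9.48 CPM with shDpep2.968, 8.61 to 11.6 CPM with shDpep2.759 and 14.0 to 19.1 CPM with shNT, where Ighm fell by 0.86 on the log2 scale (edgeR adjusted p = 0.0062). The 5 fibroblast markers summed to at most 1.45 CPM with shDpep2.968, 2.36 CPM with shDpep2.759 and 1.23 CPM with shNT. Of these, Dcn rose by 1.37 (edgeR adjusted p = 0.0274) and Col1a2 was at 0 counts. The part of these shifts in the results below was not tested. Library shDpep2.759 replicate 1 stood apart from its partner (chi-square per degree of freedom 44.9, against 15.5 to 26.4 for the other pairs of replicates) and had the highest share of ribosomal protein reads, 5.22%, against 3.48% to 4.34% elsewhere.

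The first comparison asked which of these genes differed when Dpep2 was lowered, taking the mean of both hairpins against shNT. The genes that rose were 3 phosphatases and 1 AP-1 gene: Dusp1 and Dusp2 by 1.89-fold each, Dusp5 by 1.42-fold and Fos by 1.32-fold. No member fell. In bulk RNA, more cells with a transcript and more of it per cell cannot be told apart. These 4 of 10 compare with 3.44% of all tested genes called higher and 4.15% called lower (edgeR quasi-likelihood test, Benjamini-Hochberg adjusted p under 0.05). The median log2 fold change was 0.28 over the 10 members and 0.00 over all tested genes. In the same 4 genes all 4 hairpin libraries lay above all 3 controls, which held for 9.03% of tested genes. That count rests on the same libraries as the calls and adds no separate support. The 10 genes were chosen with earlier results of these data known, so their counts and median are a description. The same holds for every count of members or listed genes below. The other 6 genes, Fosl1, Jun, Junb, Egr1, Dusp4 and Dusp6, did not pass and overlapped with the controls.

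**Figure D1:**
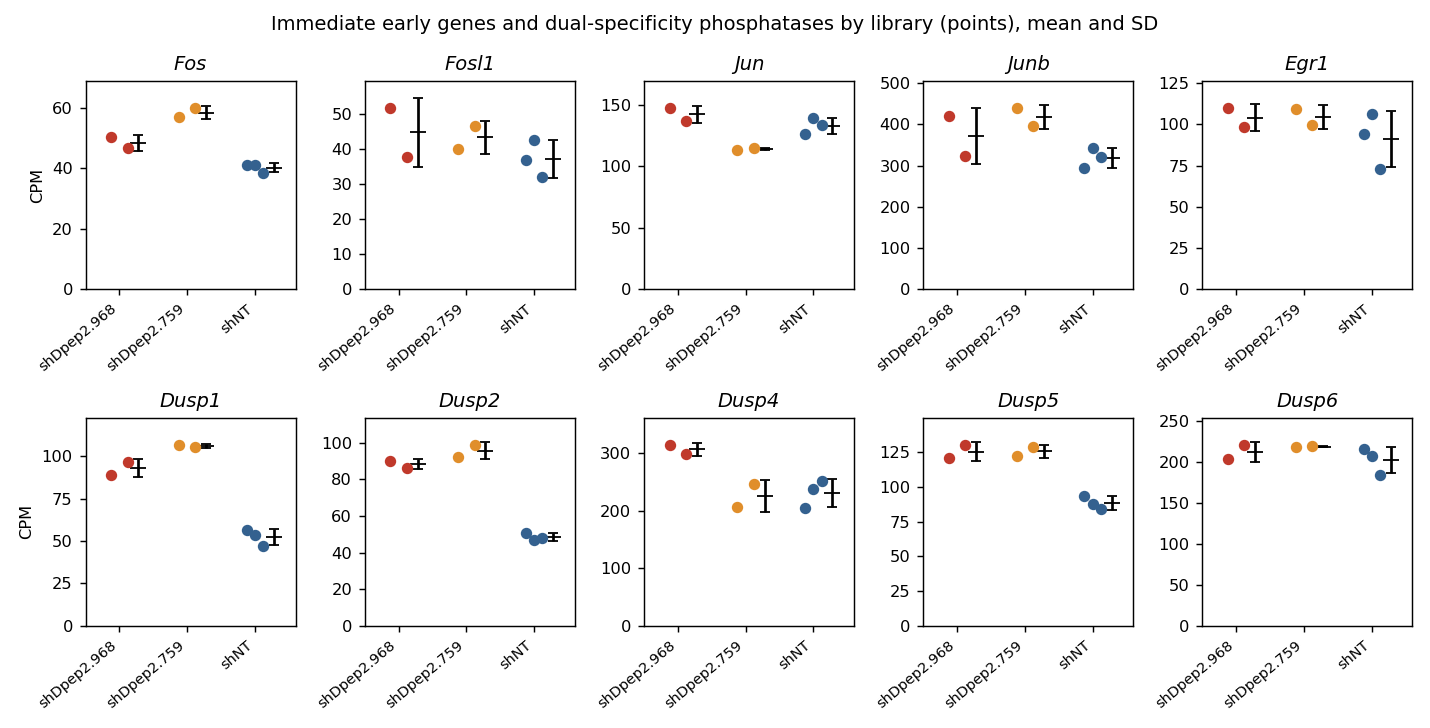
Level of each gene in CPM (vertical axes, from 0) in every library (points) of the groups shDpep2.968 (n = 2), shDpep2.759 (n = 2) and shNT (n = 3), with the mean and SD beside them in black. Dusp1 and Dusp2 stand at 86.4 to 107 CPM in the hairpin libraries and at 46.9 to 56.6 CPM with shNT, whereas Jun, Egr1 and Dusp6 overlap between hairpin and control libraries.

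Dusp1, the phosphatase of p38 and JNK, measured 89.2 and 96.8 CPM in shDpep2.968 cells, 107 and 105 CPM in shDpep2.759 cells, and 56.6, 53.5 and 47.4 CPM in shNT cells. Every hairpin library lay well above the highest control. Averaged over both hairpins, the log2 fold change was 0.92 (SE 0.10, 95% interval 0.70 to 1.14, adjusted p = 0.000272). It ranked 33 by p among the tested genes. Dusp1 overlaps the protein-coding gene Ergic1 on the opposite strand, and the strand setting of the counting is not given. A processed pseudogene and a sense intronic gene overlap Dusp1 on its own strand, where strand would not separate the reads. Ergic1 had a log2 fold change of 0.23 in the same comparison and did not pass (adjusted p = 0.251). It measured 161 and 162 CPM in shDpep2.968 cells, above every control. The levels were 125 and 122 CPM in shDpep2.759 cells, and 125, 136 and 99.9 CPM in shNT cells.

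Dusp2, a nuclear phosphatase made mainly by haematopoietic cells, measured 90.3 and 86.4 CPM in shDpep2.968 cells, 92.5 and 98.9 CPM in shDpep2.759 cells, and 50.9, 46.9 and 48.0 CPM in shNT cells. Libraries of a group lay close together, and the hairpin and control groups were far apart. The log2 fold change was 0.92 (SE 0.10, 95% interval 0.71 to 1.13, adjusted p = 0.000216). Dusp1 and Dusp2 kept their calls under all 16 alternatives, with the largest adjusted p at 0.00587 and 0.00511.

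Dusp5, a nuclear phosphatase specific for ERK, measured 120.4 and 130.2 CPM in shDpep2.968 cells, 122 and 129 CPM in shDpep2.759 cells, and 93.4, 87.9 and 83.8 CPM in shNT cells. Both hairpins gave almost the same level, above every control. An antisense gene overlaps Dusp5, and its reads cannot be told apart from those of Dusp5 without the strand setting. The log2 fold change was 0.51 (SE 0.10, 95% interval 0.30 to 0.71, adjusted p = 0.00698). The call was lost when replicate 2 or 3 of shNT was left out, at log2 fold changes of 0.49 (adjusted p = 0.0619) and 0.46 (adjusted p = 0.0772). It was also lost with same-numbered replicates fitted as a block. The call stood in 13 of 16 alternatives, with a largest adjusted p of 0.126.

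The promoters of the 4 genes that rose are shown because these genes moved together. They are the 250 bases before the transcription start, from RefSeq on GRCm38.p6, which holds promoters for 7 of the 10 members in the table used. The count table's own annotation is not given in the sources used here. Capitals mark matches on either strand to the cyclic AMP response element TGACGTCA, to the core TGACG, which the full element contains, to the AP-1 site TGANTCA, to the Egr site GCGTGGGCG or to the CArG box bound by serum response factor.
Dusp1, chr17:26508473-26508722, minus strand: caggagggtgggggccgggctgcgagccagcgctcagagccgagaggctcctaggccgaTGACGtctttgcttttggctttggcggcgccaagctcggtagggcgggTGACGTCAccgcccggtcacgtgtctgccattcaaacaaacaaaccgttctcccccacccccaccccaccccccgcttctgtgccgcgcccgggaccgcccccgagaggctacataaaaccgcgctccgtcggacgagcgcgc
Dusp2, chr2:127335909-127336158, plus strand: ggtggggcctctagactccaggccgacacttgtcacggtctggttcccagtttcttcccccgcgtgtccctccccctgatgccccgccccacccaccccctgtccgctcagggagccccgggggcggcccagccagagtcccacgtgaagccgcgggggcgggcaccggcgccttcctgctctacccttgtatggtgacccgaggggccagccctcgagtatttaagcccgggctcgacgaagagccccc
Dusp5, chr19:53528895-53529144, plus strand: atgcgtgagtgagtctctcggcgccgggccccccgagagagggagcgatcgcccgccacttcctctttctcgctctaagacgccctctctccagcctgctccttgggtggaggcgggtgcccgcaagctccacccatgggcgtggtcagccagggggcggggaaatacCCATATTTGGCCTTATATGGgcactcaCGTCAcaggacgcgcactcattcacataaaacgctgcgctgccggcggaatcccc
Fos, chr12:85473640-85473889, plus strand: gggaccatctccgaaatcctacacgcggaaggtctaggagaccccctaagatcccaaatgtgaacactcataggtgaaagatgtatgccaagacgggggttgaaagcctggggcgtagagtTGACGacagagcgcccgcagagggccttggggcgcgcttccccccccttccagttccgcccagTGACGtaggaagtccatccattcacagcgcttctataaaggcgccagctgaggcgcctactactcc
Dusp1 held a full cyclic AMP response element at position -143, counted from the start, and a further core at -191. That element was present in 1.55% of the 32851 promoters of the same length in the table, and the core in 17.8%. Dusp5 held 2 CArG boxes, at -82 and -72, a match found in 1.47% of promoters, and a core at -55. Fos held 2 cores, at -129 and -66. Dusp2 held none of these motifs in this window. The AP-1 site (6.75% of promoters) and the Egr site (0.536%) were found in none of the 7 promoters, and the ETS core GGAA, which 93.4% of promoters held, is not capitalised. Junb had 1 core, and Jun and Dusp6 had none of the capitalised motifs. These matches describe letters and not binding. Only the stated patterns were searched, so variants of a site and sites outside the 250 bases were not counted. The Jun promoter, for example, holds TGACATCA, which is close to the full cyclic AMP response element but matches no pattern searched.

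Dusp4 and Dusp6, both brakes on ERK, were the most abundant of the 5 phosphatases in control cells and neither passed. Dusp4 measured 315 and 299 CPM in shDpep2.968 cells, 206 and 246 CPM in shDpep2.759 cells, and 205, 238 and 252 CPM in shNT cells. Only the shDpep2.968 libraries lay above all controls. The averaged log2 fold change was 0.19 (95% interval -0.06 to 0.43, adjusted p = 0.353). Dusp6 measured 203 and 221 CPM in shDpep2.968 cells, 218 and 219 CPM in shDpep2.759 cells, and 216, 207 and 184 CPM in shNT cells. Its log2 fold change was 0.09 with an interval of -0.13 to 0.31 (adjusted p = 0.64).

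Over the whole Dusp family in the lists, 17 of 19 genes were tested, of which 3 rose and 2 fell. Of all tested genes 3.44% were called higher and 4.15% lower. The 3 Dusp genes that rose were the members just described. Of 13 tested genes in the list of other dual-specificity phosphatases and the related Styx, none rose, 2 fell and the median log2 fold change was -0.12. Dusp18 measured 11.8 and 9.73 CPM in shDpep2.968 cells, 10.4 and 11.3 CPM in shDpep2.759 cells, and 17.3, 15.6 and 14.5 CPM in shNT cells (log2 fold change -0.54, SE 0.13, adjusted p = 0.0252). Dusp8, which acts on JNK and p38, was at 0.703 to 1.01 CPM in the hairpin libraries and 1.33 to 2.79 CPM with shNT (log2 fold change -1.23, SE 0.34, adjusted p = 0.0431). Dusp10 and Dusp16, which share that preference, had log2 fold changes of -0.13 and 0.12 and did not pass, nor did Dusp7, a cytoplasmic relative of Dusp6, at -0.21. The Dusp18 call was lost without shDpep2.968 replicate 2 or any 1 shNT library (adjusted p from 0.0704 to 0.0992). The Dusp8 call held only on leaving out shDpep2.759 replicate 1 or shNT replicate 1 and was lost on leaving out any other library (adjusted p from 0.0864 to 0.277). It was also lost with DESeq2 (0.067), limma-voom (0.0689) and the hairpin libraries as a single group (0.0588), and stood in 7 of 16 alternatives.

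**Figure D2:**
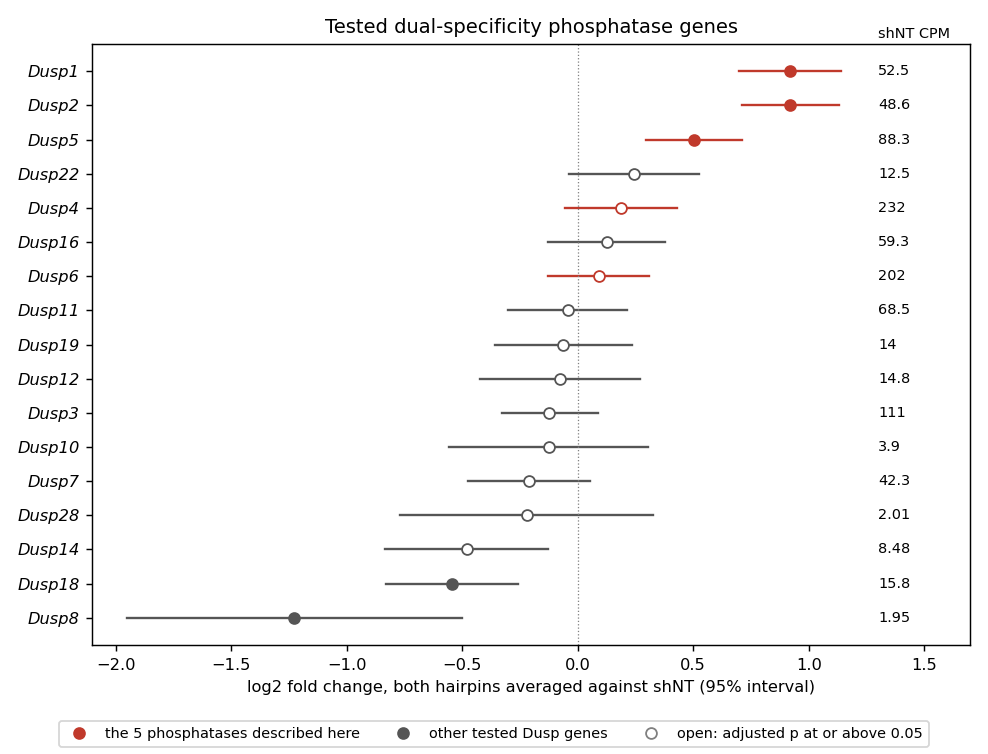
Log2 fold change of the 17 tested Dusp genes, mean of both hairpins against shNT (horizontal axis, with 95% intervals), sorted by value, with the mean shNT level in CPM at the right. Dusp1, Dusp2 and Dusp5 are the filled points to the right of 0, and Dusp18 and Dusp8, at shNT levels of 15.8 and 1.95 CPM, the filled points to the left.

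Among the AP-1 members, Fos, the inducible partner of Jun proteins, was the single one that passed. It measured 50.3 and 46.5 CPM in shDpep2.968 cells, 56.9 and 59.9 CPM in shDpep2.759 cells, and 41.2, 40.9 and 38.4 CPM in shNT cells. All hairpin libraries lay above all controls, those with shDpep2.759 highest. The log2 fold change was 0.40 (SE 0.10, 95% interval 0.19 to 0.62, adjusted p = 0.0281). This call was kept in 9 of 16 alternatives, with a largest adjusted p of 0.329 over them. A fit with same-numbered replicates as a block did not keep the call. It was lost on leaving out 1 library, be it a shDpep2.968 or a shNT one (adjusted p from 0.0539 to 0.168), while the log2 fold change stayed between 0.37 and 0.43 in those fits, and when the 4 hairpin libraries were fitted as a single group (adjusted p = 0.0721).

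Junb, a Jun relative and the most abundant of the 10 genes, measured 419.6 and 324 CPM in shDpep2.968 cells, 439 and 397 CPM in shDpep2.759 cells, and 295, 343 and 320.0 CPM in shNT cells. One shDpep2.968 library lay within the control range. The log2 fold change was 0.31 (95% interval 0.05 to 0.56, adjusted p = 0.143). Across all genes the averaged log2 fold change fell with the GC content of the transcript (Spearman -0.26, a description across genes, which are not independent), and Junb has the highest GC content of the 10, 62.6%. With a GC and length correction, chosen after seeing the data, Junb and Dusp4 passed as well, at log2 fold changes of 0.50 (adjusted p = 0.00107) and 0.32 (adjusted p = 0.0368). Under that correction 6 of 10 members were called higher, against 8.48% of tested genes.

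Jun, the classic partner of Fos, measured 147 and 137 CPM in shDpep2.968 cells, 113 and 115 CPM in shDpep2.759 cells, and 126, 139 and 133 CPM in shNT cells. The shDpep2.759 libraries were below all controls and the shDpep2.968 libraries were not. The averaged log2 fold change was -0.06 (95% interval -0.27 to 0.14, adjusted p = 0.751). Fosl1, which encodes Fra-1, measured 51.8 and 37.9 CPM in shDpep2.968 cells, 40.01 and 46.8 CPM in shDpep2.759 cells, and 37.1, 42.7 and 32.0 CPM in shNT cells (log2 fold change 0.24, 95% interval -0.06 to 0.55, adjusted p = 0.324). Its shDpep2.968 libraries had a coefficient of variation of 21.9%, the highest of any member and group. Egr1 measured 109.9 and 98.3 CPM in shDpep2.968 cells, 109.6 and 99.5 CPM in shDpep2.759 cells, and 94.1, 107 and 72.8 CPM in shNT cells (log2 fold change 0.19, 95% interval -0.08 to 0.47, adjusted p = 0.391). One control, shNT replicate 2, reached the level of the hairpin libraries. Overlapping genes on the opposite strand did not pass either: Junos at Jun, Prdx2 at Junb and Ccdc85b at Fosl1 had log2 fold changes of -0.20, 0.13 and -0.27.

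Levels were compared between genes as CPM per kilobase of the longest coding transcript. With shNT the order ran from Junb at 176 ± 13.2 through Dusp4 at 84.5 ± 8.77, Dusp6 at 72.4 ± 5.79, Jun at 41.6 ± 2.05, Dusp5 at 35.7 ± 1.96, Dusp2 at 30.1 ± 1.29, Dusp1 at 26.4 ± 2.36, Egr1 at 20.3 ± 3.82 and Fosl1, with a range of 17.1 to 22.9, to Fos at 19.1 ± 0.74 CPM per kilobase (SD, n = 3). The ranges of Dusp4 and Dusp6 overlapped, as did those of Egr1, Fosl1 and Fos. Jun lay above Dusp1, Dusp2 and Dusp5 in every control. In both hairpin groups all 3 of these phosphatases had a higher mean than Jun. With shDpep2.968 the ranges of Dusp1 (44.8 to 48.6) and Jun (42.9 to 46.1) overlapped. Dusp1 and Dusp2 together made up 29.9% and 29.8% of the summed level per kilobase of the 5 phosphatases with shDpep2.968 and 35.3% and 34.1% with shDpep2.759, against 24.0%, 22.1% and 21.8% with shNT. Fos and Fosl1 made up 13.9% to 17.3% of the 4 AP-1 genes over all 7 libraries, with hairpin and control ranges overlapping.

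**Figure D3:**
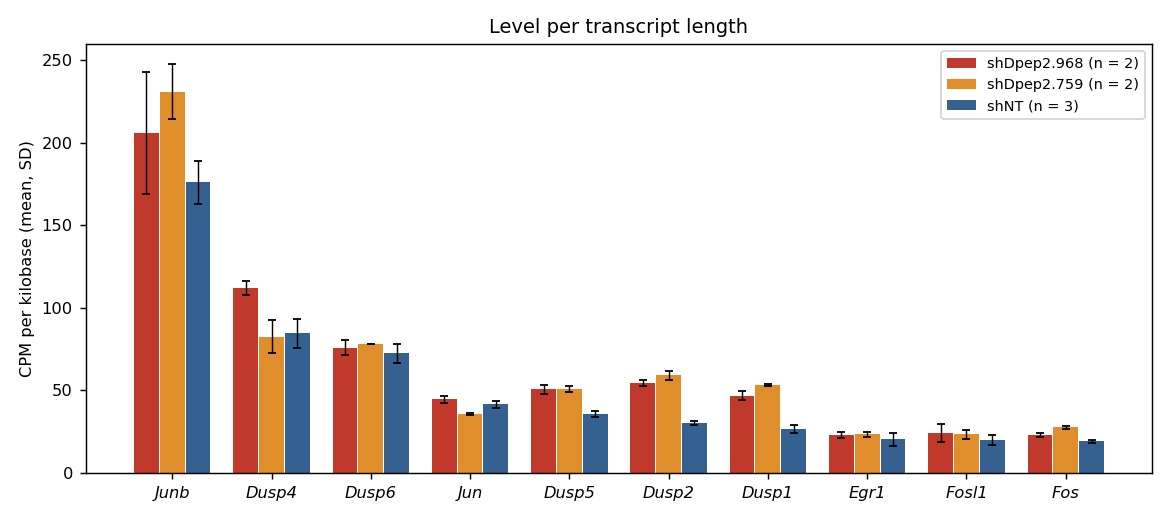
Mean level in CPM per kilobase of the longest coding transcript (bars from 0, SD as error bars) for shDpep2.968 (n = 2), shDpep2.759 (n = 2) and shNT (n = 3), ordered by the shNT level. Junb is highest in all 3 groups. The means of Dusp5, Dusp2 and Dusp1 stand below that of Jun with shNT and above it with both Dpep2 hairpins. The Dusp1 and Jun libraries overlap with shDpep2.968.

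The second comparison took each hairpin alone against the same shNT libraries, so the resulting pairs of values share their controls. With shDpep2.968, 3 members rose, against 2.29% of tested genes called higher: Dusp1 by 1.77-fold (log2 fold change 0.82, SE 0.12, adjusted p = 0.00236), Dusp2 by 1.82-fold (0.86, SE 0.11, adjusted p = 0.00124) and Dusp5 by 1.42-fold (0.50, SE 0.11, adjusted p = 0.0232). With shDpep2.759, 4 members rose, against 2.72% of tested genes: Dusp1 by 2.02-fold (1.01, SE 0.12, adjusted p = 0.000426), Dusp2 by 1.97-fold (0.98, SE 0.11, adjusted p = 0.000367), Dusp5 by 1.42-fold (0.51, SE 0.11, adjusted p = 0.0209) and Fos by 1.45-fold (0.54, SE 0.12, adjusted p = 0.0185). Fos with shDpep2.968 had a log2 fold change of 0.27 (adjusted p = 0.193). Without shDpep2.968 replicate 2 the Dusp1 call with that hairpin was lost (adjusted p = 0.051) and Dusp2 alone remained. The Dusp5 call with shDpep2.968 was lost without either shDpep2.968 library, replicate 2 or 3 of shNT (adjusted p from 0.0551 to 0.234). With shDpep2.759, the Dusp5 and Fos calls were lost without shDpep2.759 replicate 2, replicate 2 or 3 of shNT (adjusted p from 0.0637 to 0.148).

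**Figure D4:**
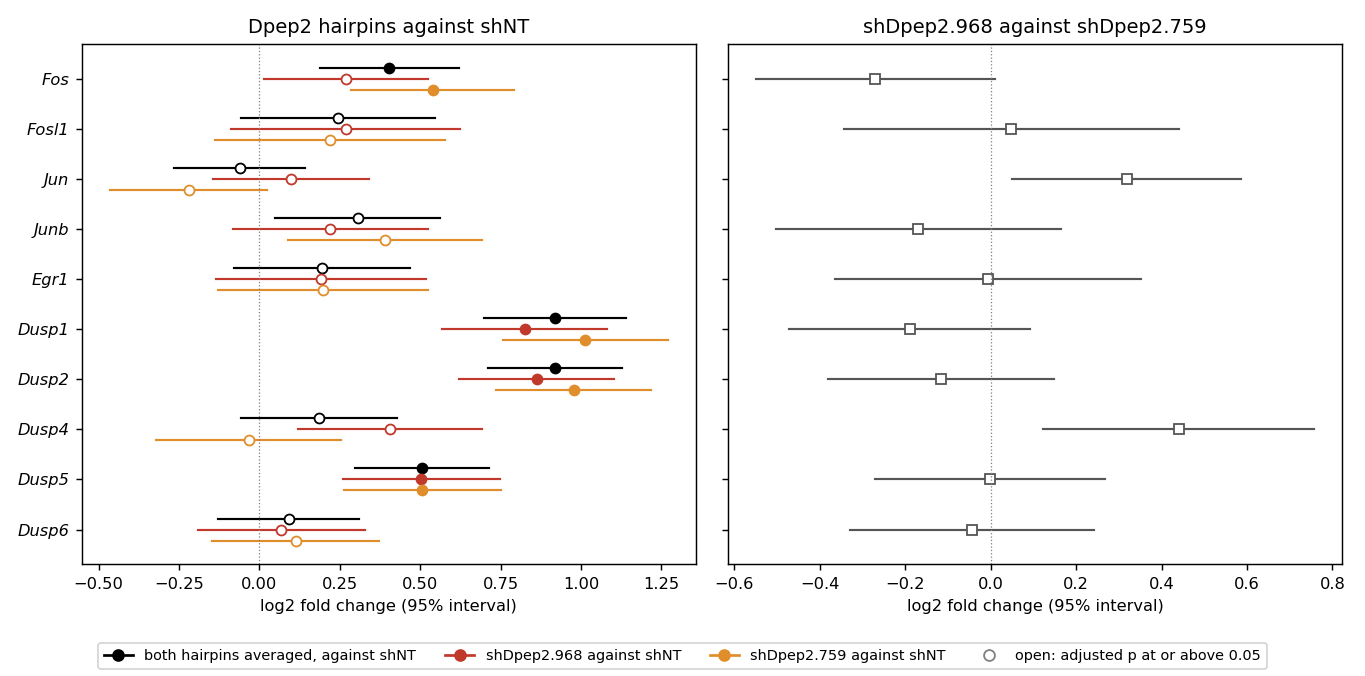
Log2 fold change with its 95% interval for the 10 genes, on the left for both hairpins averaged (black), shDpep2.968 (red) and shDpep2.759 (orange), each against shNT, and on the right for shDpep2.968 against shDpep2.759. Filled points passed an adjusted p of 0.05: Dusp1, Dusp2 and Dusp5 with each hairpin, Fos with shDpep2.759 and in the average, and no gene between the hairpins.

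Between the hairpins, shDpep2.968 against shDpep2.759, no member passed, against 0.84% of tested genes called in either direction. Unadjusted p was under 0.05 for 2 of 10 members, Dusp4 and Jun, near the 15% of all tested genes with such a p. DESeq2 and limma-voom also called 0 members. For Dusp4 the log2 difference was 0.44 (SE 0.15, 95% interval 0.12 to 0.76, adjusted p = 0.189), with both shDpep2.968 libraries above both shDpep2.759 libraries. It passed without shDpep2.759 replicate 2 (0.58, adjusted p = 0.043), where the lone shDpep2.759 library was assumed to vary like the other groups, and after correction for GC and length (0.52, adjusted p = 0.0307). Jun differed by 0.32 (SE 0.12, 95% interval 0.05 to 0.58, adjusted p = 0.257) and passed with that correction alone (0.40, adjusted p = 0.0256). Fos ran the other way, at -0.27 (95% interval -0.55 to 0.01, adjusted p = 0.349). For Dusp1, Dusp2 and Dusp5 the differences were -0.19 (95% interval -0.47 to 0.09), -0.12 (-0.38 to 0.15) and 0.00 (-0.27 to 0.27).

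The kinases above these genes did not move with them in the averaged comparison. Of 17 tested Raf-MEK-ERK cascade genes none passed, and the median log2 fold change was 0.00. The smallest p-values there belonged to Araf, a Raf kinase, at -0.21 (adjusted p = 0.243), and Hras, at -0.22 (adjusted p = 0.276). Of 16 tested p38 and JNK cascade genes 1 fell and none rose (median -0.08), against 4.15% of all tested genes called lower. That gene was Mapk11, which encodes p38 beta, at 19.2 and 14.5 CPM in shDpep2.968 cells, 25.8 and 17.7 CPM in shDpep2.759 cells, and 25.4, 31.0 and 31.1 CPM in shNT cells. Its log2 fold change was -0.61 (SE 0.15, adjusted p = 0.0309), the groups overlapped, and the call was lost without shDpep2.968 replicate 2, replicate 2 or 3 of shNT (adjusted p from 0.117 to 0.146) or with a single hairpin group (0.0802).

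Of 13 receptor and ligand genes upstream of MAPK in macrophages 5 rose and none fell, with a median log2 fold change of 0.26. Of all tested genes 3.44% were called higher and 4.15% lower. The list was chosen with earlier results of these data known, so its count is a description. Il1a and Il1b, interleukin-1 cytokines, rose by 2.49 and 1.75 on the log2 scale, and the tumour necrosis factor receptor Tnfrsf1b by 1.14 (adjusted p from 0.000137 to 0.000272). Tnfrsf1b averaged 397 CPM with shDpep2.968, 738 CPM with shDpep2.759 and 246 CPM with shNT, so its rise differed in size between the hairpins. Of the 13 genes, 2 were called lower with shDpep2.968 than with shDpep2.759, against 0.585% of tested genes. Met, the hepatocyte growth factor receptor, measured 3.01 and 4.32 CPM in shDpep2.968 cells, 6.90 and 7.91 CPM in shDpep2.759 cells, and 1.03, 0.603 and 0.503 CPM in shNT cells. Every hairpin library lay above every control, and the log2 fold change was 2.87 (SE 0.28, adjusted p = 0.000137). Tlr2 rose by 0.41 (adjusted p = 0.0373), a call kept without shDpep2.968 replicate 1 or shDpep2.759 replicate 1 and lost without any other library (adjusted p from 0.0593 to 0.211). It was also lost with limma-voom (0.0508) and a single hairpin group (0.085), and stood in 8 of 16 alternatives. The other 4 calls held in all 16 alternatives.

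The remaining immediate early genes went both ways. Of 17 tested, 1 rose and 3 fell (median 0.10), against 3.44% of all tested genes called higher and 4.15% called lower. The same shares apply to the lists in the next paragraph. Myc measured 53.3 and 50.2 CPM in shDpep2.968 cells, 64.9 and 83.4 CPM in shDpep2.759 cells, and 29.4, 29.9 and 25.6 CPM in shNT cells (log2 fold change 1.13, SE 0.12, adjusted p = 0.000237). Klf2, a zinc-finger factor known to restrain macrophage activation, measured 11.9 and 8.87 CPM in shDpep2.968 cells, 10.1 and 11.7 CPM in shDpep2.759 cells, and 16.8, 19.9 and 23.6 CPM in shNT cells (-0.92, SE 0.15, adjusted p = 0.00329). Both calls held in all 16 alternatives. Klf4, a relative of Klf2, and Zfp36l1, which promotes decay of AU-rich mRNAs, fell by 0.65 and 0.57 (adjusted p = 0.0256 and 0.0192). The Klf4 call was lost on leaving out shDpep2.968 replicate 2, replicate 2 or 3 of shNT (adjusted p from 0.0989 to 0.137), and Zfp36l1 without shDpep2.968 replicate 2 (0.0655) or shNT replicate 2 (0.135).

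Of 11 tested other AP-1 and related bZIP genes 1 rose (median -0.02): Batf2, an interferon-inducible partner of Jun proteins, at 9.60 and 9.10 CPM in shDpep2.968 cells, 8.58 and 7.61 CPM in shDpep2.759 cells, and 4.83, 5.81 and 3.58 CPM in shNT cells (log2 fold change 0.88, SE 0.18, adjusted p = 0.0117). That call was lost without shNT replicate 3 (adjusted p = 0.0757). Of 11 ETS factors and other ERK outputs 1 fell (median -0.07): Etv4, at 7.05 and 4.49 CPM in shDpep2.968 cells, 5.84 and 5.15 CPM in shDpep2.759 cells, and 7.19, 11.6 and 9.05 CPM in shNT cells (-0.72, SE 0.20, adjusted p = 0.0473). It held on leaving out replicate 1 of any group and was lost on leaving out any other library (adjusted p from 0.0791 to 0.254), with limma-voom (0.0692) and with a single hairpin group (0.0731), standing in 9 of 16 alternatives. Of 11 other feedback inhibitors none passed (median -0.04). Errfi1, an inhibitor of the epidermal growth factor receptor, had a log2 fold change of 0.42 (adjusted p = 0.0691) and Spred3, an inhibitor of Ras to ERK signalling, of -0.25 (adjusted p = 0.243).

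**Figure D5:**
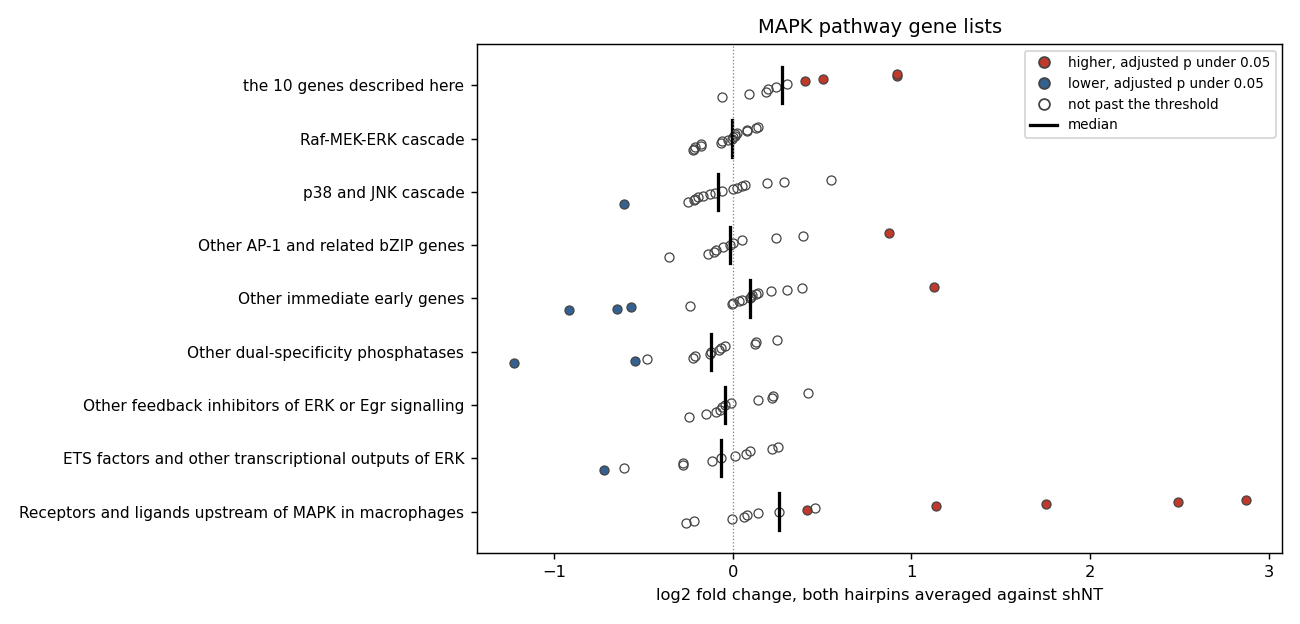
Log2 fold change, mean of both hairpins against shNT, of every tested gene (points) in 9 gene groups, with the group median as a vertical bar. Filled points passed an adjusted p of 0.05, red higher and blue lower. The 10 genes described here and the receptors and ligands have medians of 0.28 and 0.26, and the other 7 groups lie between -0.12 and 0.10.

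For each member that rose, the 3 genes most like it over the 7 libraries were found by Pearson correlation of log2 CPM among 9509 other genes with a mean of at least 5 CPM. The libraries fall into hairpin and control clusters, so these coefficients mainly carry that difference and are given as a description. Dusp1 was most like Tor3a (r = 0.998), the ceramide kinase gene Cerk (0.997) and Il1a (0.994). Dusp5 was most like the transglutaminase gene Tgm2 (0.995), Il1a (0.994) and the adhesion receptor gene Adgre5 (0.994). Dusp2 was most like the adaptor gene Sh3bp2 (0.993), Golga1 (0.991) and Rtp4 (0.989). Fos was most like Lhfpl2 (0.995), the phagosomal metal transporter gene Slc11a1 (0.991) and Nfam1 (0.991). Lhfpl2 measured 90.2 and 84.2 CPM in shDpep2.968 cells, 113 and 120 CPM in shDpep2.759 cells, and 70.8, 66.3 and 59.1 CPM in shNT cells, the same order of groups as Fos.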

How the data were processed

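The deposited table holds counts, all whole numbers, of 55417 symbols over 7 libraries. Whether they are rounded Salmon estimates is not given in the sources used, and counting errors then hold only approximately. Per the labels' protocols, total RNA was made into stranded TruSeq libraries and read as 150 bp pairs. The submitters' processing notes name Trim Galore, Salmon and the human build hg38, although the symbols are mouse. The sources used here give no roles, versions, strand setting or mouse annotation.

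Groups follow the hairpin in the sample titles. Genes were filtered with filterByExpr (13329 kept), TMM-scaled and fitted with edgeR 4.0.16 in R 4.3.3 as 1 mean per group, leaving 4 residual degrees of freedom. Robust quasi-likelihood tests had p-values Benjamini-Hochberg adjusted over all tested genes, with a threshold of 0.05. The common biological coefficient of variation was 13.8%. The 10 members and all gene lists were chosen with earlier results of these data known. Besides Dpep2 and the members, the text names up to 5 passing genes per list by smallest p (or 2 as values where none passed), overlapping genes, and the 3 most similar genes. Dusp7, Dusp10 and Dusp16 were named after their values were seen. Transcript length and GC content came from GENCODE M21, and promoters from RefSeq, where the 250 bases before the start were searched, without the 50 after it. A planned protein comparison was not made. Fits were tested on simulated data. Alternatives included DESeq2 1.42.0 and limma-voom (limma 3.58.1).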

Additional observations from a re-analysis of the deposited data

Results flagged for a closer look

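Jun lay on opposite sides of the mean of the shNT libraries with the 2 hairpins: both shDpep2.968 libraries were above it and both shDpep2.759 libraries below it. Replicate 2 of shDpep2.968 was within the control range. Against shNT neither hairpin passed, at log2 fold changes of 0.098 with shDpep2.968 (edgeR adjusted p = 0.637) and -0.22 with shDpep2.759 (edgeR adjusted p = 0.313). The difference, shDpep2.968 against shDpep2.759, was 0.318 on the log2 scale (SE 0.12, edgeR adjusted p = 0.257), so it did not pass when tested. No group held 4 or more libraries, so no library was tested as an outlier within its group.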

How the results depend on the processing

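Of the alternatives run, Dusp1 and Dusp2 were called in all of them in the averaged comparison and with shDpep2.759, and in the shDpep2.968 comparison Dusp2 was called in all and Dusp1 in 14 of 15. Without the low-count filter the called genes numbered 1590 for the hairpin average, 1443 for shDpep2.968, 1131 for shDpep2.759 and 669 between the hairpins, where DESeq2 called 376 and limma-voom 54. All hairpin libraries as 1 group gave 540 genes. The GC and length correction gave 2285, 1826, 1772 and 566 genes, with 6 members for shDpep2.968 and 2 between the hairpins. Same-numbered libraries shared only a number: their deviations from group means correlated at 0.071 between the hairpins and from -0.225 to -0.159 with shNT. A replicate block gave 404, 308 and 312 genes for the average, shDpep2.968 and shDpep2.759, and 2 members, Dusp1 and Dusp2, in the average and with shDpep2.759. The block also ended the calls of Mapk11, Batf2, Klf4, Dusp18, Dusp8, Etv4 and Tlr2 (adjusted p from 0.0846 to 0.292). Leaving out 1 hairpin library leaves its group a lone library, assumed to vary like the other groups. Leaving out 1 library gave 321 to 1468 genes and 2 to 4 members for the average, 69 to 1309 and 1 to 4 for shDpep2.968, 253 to 768 and 2 to 4 for shDpep2.759, and 6 to 1070 and 0 to 1 between the hairpins.

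Signs turned only for log2 values that had not passed. Averaged Jun was 0.04 with the GC correction. Dusp4 with shDpep2.759 was 0.03 with the block, 0.05 with the GC correction and -0.17 to 0.09 on leaving out 1 library. Between the hairpins, Egr1 was 0.00 with RLE size factors and DESeq2, 0.02 with library size alone and 0.08 with the GC correction. Dusp5 was 0.01, 0.01, 0.03 and 0.10 in those 4 fits, and Dusp2 was 0.02 with the GC correction. On leaving out 1 library, the values between the hairpins were -0.18 to 0.25 for Fosl1, -0.35 to 0.00 for Junb, -0.08 to 0.07 for Egr1, -0.06 to 0.07 for Dusp5 and -0.11 to 0.03 for Dusp6. The cause was not tested. RLE and library-size scaling moved the all-gene median by at most 0.03.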
